A study of Mus musculus with 4 samples.

Results

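The cells described here were taken by a gate meant for basophil and mast cell progenitors of mouse bone marrow. They were picked from single-cell RNA-seq by 5 genes: Cpa3, Ms4a2, Fcer1a, Mcpt8 and Prss34. The name is that of the gate and, as given below, does not cover all of its cells. A cell was taken when it had at least 1 unique molecular identifier (UMI, 1 counted RNA molecule) of 2 or more of these genes and 0 UMIs of Car1, Pf4 and Ebf1, which mark erythroid, megakaryocyte and B lineage cells. The gate held 360 of 37717 kept cells, or 0.954%. The measured values of these genes chose the cells, so their levels in the gate are given as a description, with no test.

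The 6 mice were females of the Tppp3CreER LSLTdTomato genotype, labelled as 6 weeks old, although the design text also speaks of isolation after 2 weeks. In these mice tamoxifen switches on a Cre recombinase driven from Tppp3 and so a red fluorescent reporter. Of these, 2 received tamoxifen together with rapamycin at postnatal days 0 and 3, 2 received tamoxifen without rapamycin at the same ages, and 2 received rapamycin alone at postnatal day 30 and no tamoxifen (late rapamycin). Rapamycin inhibits the growth-controlling kinase complex mTORC1. All 6 mice carried both alleles, and the late rapamycin mice differed from the tamoxifen plus rapamycin mice in tamoxifen and in the age at rapamycin, and from the tamoxifen mice in tamoxifen and in having received rapamycin. In neither comparison can these be told apart. The cells were a mixture of Lin-Sca+Kit+ cells, Lin-Sca-Kit+ cells and whole bone marrow, so a share of cells here is a share of that mixture. The design compares these treatments in cells processed on 2 days, with 1 mouse of each treatment pooled per day. Replicate 1 of each treatment was processed on day 1 and replicate 2 on day 2.

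Basophils and mast cells are granulocytes of allergy and of the defence against parasites. Both carry the high-affinity receptor for IgE, store histamine and proteases in granules, and arise in mouse bone marrow from progenitors that express the transcription factor Gata2. Cpa3 encodes the granule enzyme carboxypeptidase A3. Fcer1a and Ms4a2 encode the alpha and beta chains of the IgE receptor, and Mcpt8 and Prss34 encode serine proteases that in mice are known from basophils.

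Each mouse is known from the hashtag of its cells, an antibody carrying a short DNA barcode that was read beside the RNA. The barcodes are shown because every treatment value below rests on them.
Hashtag 1, tamoxifen plus rapamycin, replicate 1: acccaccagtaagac
Hashtag 4, tamoxifen plus rapamycin, replicate 2: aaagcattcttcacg
Hashtag 2, tamoxifen, replicate 1: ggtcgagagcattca
Hashtag 5, tamoxifen, replicate 2: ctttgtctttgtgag
Hashtag 3, late rapamycin, replicate 1: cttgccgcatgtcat
Hashtag 6, late rapamycin, replicate 2: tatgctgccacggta
A cell was given to a mouse when 1 barcode held at least 80% of its hashtag UMIs. The treatment of each hashtag was taken from the deposited hashtag table, where hashtags 3 and 6 are called control and were read here as late rapamycin. The sample labels number the tamoxifen mice 1 and 4 and the tamoxifen plus rapamycin mice 2 and 5. If those numbers were hashtag numbers, the 2 tamoxifen treatments would change places in every value below.

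The promoters of the 5 gate genes are shown because the transcription factor Gata2 was among the genes that stood highest in the gated cells. Each sequence is RefSeq, GRCm38.p6, from 250 bases before the start of the gene to 50 bases after it, 5′ to 3′ on the strand of the gene, and all 5 genes were matched. Capitals mark AGATAA or TGATAA, letters bound by GATA factors, or their reverse complements TTATCT and TTATCA, searched on both strands with overlaps allowed.
Cpa3, chr3:20242132-20242431, minus strand: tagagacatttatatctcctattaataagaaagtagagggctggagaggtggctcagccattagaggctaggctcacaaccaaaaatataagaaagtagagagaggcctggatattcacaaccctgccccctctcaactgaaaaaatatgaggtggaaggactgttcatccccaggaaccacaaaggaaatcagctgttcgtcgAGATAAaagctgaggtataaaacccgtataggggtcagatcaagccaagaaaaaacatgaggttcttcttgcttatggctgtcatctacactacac
Ms4a2, chr19:11623670-11623969, minus strand: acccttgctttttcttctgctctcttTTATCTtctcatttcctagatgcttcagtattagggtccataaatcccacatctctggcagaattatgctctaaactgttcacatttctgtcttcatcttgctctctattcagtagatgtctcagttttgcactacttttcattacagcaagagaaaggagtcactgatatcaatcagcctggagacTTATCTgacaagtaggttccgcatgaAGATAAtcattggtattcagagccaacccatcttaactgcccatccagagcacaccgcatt
Fcer1a, chr1:173227180-173227479, minus strand: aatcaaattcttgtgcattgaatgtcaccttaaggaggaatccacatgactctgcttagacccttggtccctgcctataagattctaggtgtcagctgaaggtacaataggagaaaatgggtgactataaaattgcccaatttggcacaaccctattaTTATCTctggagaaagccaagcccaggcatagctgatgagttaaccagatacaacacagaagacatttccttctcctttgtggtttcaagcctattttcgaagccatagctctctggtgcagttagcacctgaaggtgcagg
Mcpt8, chr14:56085148-56085447, minus strand: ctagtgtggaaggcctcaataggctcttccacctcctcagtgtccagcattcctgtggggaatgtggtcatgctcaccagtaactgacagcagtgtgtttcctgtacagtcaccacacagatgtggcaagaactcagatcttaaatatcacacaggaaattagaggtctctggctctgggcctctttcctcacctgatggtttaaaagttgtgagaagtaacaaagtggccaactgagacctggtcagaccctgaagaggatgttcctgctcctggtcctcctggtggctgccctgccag
Prss34, chr17:25298144-25298443, plus strand: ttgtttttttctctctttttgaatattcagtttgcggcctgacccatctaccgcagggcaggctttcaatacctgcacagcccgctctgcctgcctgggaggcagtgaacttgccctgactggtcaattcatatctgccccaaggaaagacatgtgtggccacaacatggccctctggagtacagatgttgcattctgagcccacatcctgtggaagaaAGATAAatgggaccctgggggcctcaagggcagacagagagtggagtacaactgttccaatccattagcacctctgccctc
The Ms4a2 promoter held 3 matches, those of Cpa3, Fcer1a and Prss34 held 1 each, and the Mcpt8 promoter held 0. Of 32817 mouse promoters of this length, 6112 (18.6%) held at least 1 match and 1071 (3.26%) held 2 or more. The matches describe the letters only, and none of these data measured binding.

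The kept cells numbered 19619 on day 1 and 18098 on day 2. The deposited matrices held 25058 and 21409 barcodes and 113535036 and 115505329 gene UMIs. Cells with at least 500 genes, at least 1000 gene UMIs and at most 10% mitochondrial UMIs were used. The 2 days shared 126 barcodes, 75 of them kept and 0 of them gated. Late rapamycin replicate 1 stood apart from the other mice: the remaining kept cells of that mouse held 59764 CPM (UMIs of a gene scaled to 1000000 UMIs of the summed cells) of 8 mature neutrophil genes together, against 16458 to 21942 CPM in the other 5.

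The gate held 60 and 58 cells in the tamoxifen plus rapamycin mice, 67 and 65 in the tamoxifen mice, and 62 and 48 in the late rapamycin mice. The median gated cell had 5723.5 gene UMIs, against 3723 in the remaining 37357 kept cells. The summed gated cells of a mouse held between 262412 and 452562 UMIs. A gene at 0 UMIs in all gated cells could have been present at up to 1.36 CPM, the level of 3 counts, which covers counting error only.

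The gate rested most often on Cpa3, found in 336 gated cells (93.3%) with a median of 3 UMIs in those cells. Ms4a2 was found in 229 cells (63.6%) and Mcpt8 in 213 (59.2%), but 134 of the Mcpt8 cells had exactly 1 UMI. Prss34 was found in only 54 cells (15.0%), at a median of 42 UMIs and up to 241 in 1 cell. Fcer1a was found in 58 cells (16.1%). Prss34 was thus scarce but abundant where found, whereas Mcpt8 was common at 1 UMI.

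Free RNA can put single UMIs into any droplet, so the same shares were taken in cell types that should lack these genes. Mcpt8 was found in 0.984% of mature neutrophil cells (a gate of 6099 cells, median 2795 UMIs) and in 0.450% of B cells (4220 cells, median 1608 UMIs). In granulocyte-monocyte progenitors, taken here as 5147 cells with both Mpo and Elane and outside the basophil and mast gate (median 8475 UMIs), it was found in 10.3%. Cpa3 was found in 14.7% of 2790 cells taken as having both Gata2 and Apoe (median 4777 UMIs) and outside the gate, against 0.443% of mature neutrophils and 0.900% of B cells. Prss34 was found in 0.115% of the neutrophils, 0.0711% of the B cells and 0.272% of the granulocyte-monocyte progenitors.

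**Figure D1:**
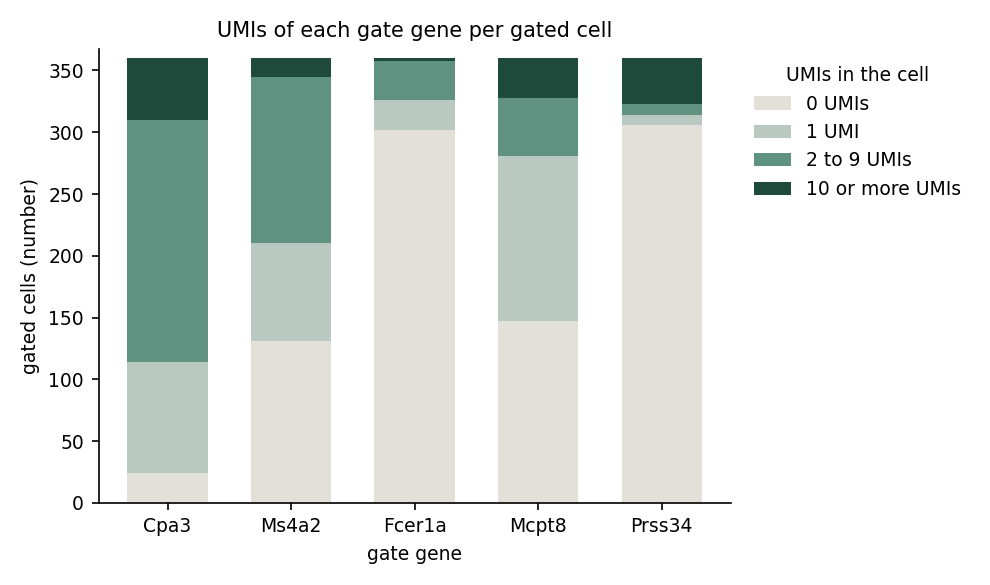
Number of gated cells (vertical axis, 360 cells in all) with 0, 1, 2 to 9 or at least 10 UMIs of each of the 5 gate genes. Prss34 was absent from most cells and reached 10 UMIs in 37 of its 54 cells, whereas Mcpt8 reached 10 UMIs in 32 of its 213 cells.

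At the threshold of the gate, 267 cells had exactly 2 gate genes and 77 of them had exactly 2 gate UMIs. Just outside it lay 1868 kept cells with a single gate gene, mostly Cpa3 (1041 cells) or Mcpt8 (640 cells). A further 62 cells had 2 or more gate genes and were left out for Car1, Pf4 or Ebf1. Inside the gate, 93 cells had at least 3 of the genes and 29 had all 5. The commonest of 18 combinations were Cpa3 with Ms4a2 (122 cells), Cpa3 with Mcpt8 (115 cells), Cpa3 with Ms4a2 and Mcpt8 (30 cells), and all 5 genes (29 cells).

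The combinations were grouped into 3 sets that differed in many other genes. These sets were chosen after the values were seen. The first held the 54 cells with Prss34 (median 3613 UMIs), the second the 163 cells with Mcpt8 but no Prss34 (median 7120 UMIs), and the third the 143 cells with neither (median 4712 UMIs). The sets share a source with the gate, so their levels are a description, with no test.

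Some of the other basophil genes, picked from the list after their values were seen, stood highest in the Prss34 cells. Cd200r3, an activating receptor of basophils and mast cells, stood at 741.6 CPM in Prss34 cells, 7.33 CPM in Mcpt8 cells without Prss34 and 14.9 CPM in cells with neither. Of its 53 cells, 41 were Prss34 cells. Cyp11a1, a steroid-making enzyme, stood at 244.5, 14.7 and 9.46 CPM in the same order of sets, and the chemokine gene Ccl3 at 228, 12.2 and 9.46 CPM. Fcer1a, itself a gate gene, stood at 611, 2.44 and 40.5 CPM. Cd200r3, Cyp11a1 and Ccl3 were thus highest in the set that made up 15.0% of the gated cells. The cytokine gene Il4 had 23 UMIs in 17 gated cells, 57.1 CPM in Prss34 cells. Il6 had 14 UMIs and Il13 had 1 UMI in all gated cells.

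Several genes of IgE signalling and mediator release also stood highest in the Prss34 cells. These cells also held 8011 CPM of the 8 mature neutrophil genes, against 442 CPM in Mcpt8 cells without Prss34 and 303 CPM in cells with neither. A list of 19 IgE signalling genes summed to 4711 CPM in Prss34 cells, 3019 CPM in mature neutrophils and 3189 CPM in B cells. The part of neutrophil RNA in the levels below was not tested. Fcer1g, the shared gamma chain of the receptor, stood at 664 CPM in Prss34 cells, 114 in Mcpt8 cells without Prss34 and 103 in cells with neither. Alox5, which starts leukotriene synthesis, stood at 363, 31.8 and 68.9 CPM in these sets. Hdc, the enzyme that makes histamine, stood at 412, 112 and 123 CPM. Slc18a2, the transporter that loads histamine into granules, had a different order, with 322 CPM in Prss34 cells and 251 CPM in cells with neither, above 71.7 CPM in Mcpt8 cells without Prss34. The kinase genes Syk and Lyn were not highest in Prss34 cells: Syk stood at 134.5, 169 and 227 CPM and Lyn at 216, 114 and 227 CPM.

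The Mcpt8 cells without Prss34 resembled granulocyte-monocyte progenitors in their granule genes. Elane, which encodes neutrophil elastase, stood at 3048.8 CPM in this set, against 1157 CPM in Prss34 cells, 336.5 CPM in cells with neither and 5741 CPM in the granulocyte-monocyte progenitors. Those progenitors were chosen by UMIs of Mpo and Elane, so their high level was fixed by the choice and shows no likeness. Myeloperoxidase, Mpo, stood at 4261 CPM, against 1821 CPM in Prss34 cells and 1328 CPM in cells with neither. Elane was found in 109 of the 163 cells. Gata2 was low in this set, at 95.3 CPM, against 635.7 CPM in Prss34 cells and 423 CPM in cells with neither. The 15 cells gated on Ms4a2 and Mcpt8 alone had 8769 CPM of Elane and 11.8 CPM of Gata2, and 10 of them came from late rapamycin replicate 1. Over the whole gate, 169 of 360 cells had at least 20 UMIs of 6 neutrophil progenitor genes (Elane, Mpo, Prtn3, Ctsg, Ms4a3 and Fcnb), which the label of basophil and mast cell progenitors does not cover.

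The cells with neither Mcpt8 nor Prss34 carried genes shared with the Gata2 and Apoe cells outside the gate. Gata1, a partner of Gata2 in erythroid, megakaryocyte and mast cell lineages, stood at 104 CPM in this set and 93.0 CPM in the Gata2 and Apoe cells, against 40.8 CPM in Prss34 cells and 7.33 CPM in Mcpt8 cells without Prss34. Zfpm1, which encodes the GATA cofactor FOG1, stood at 159.5 CPM, against 20.4 and 38.3 CPM in the other sets. Apoe, the lipid carrier apolipoprotein E, stood at 739 CPM in this set, 367 CPM in Prss34 cells and 179 CPM in Mcpt8 cells without Prss34. Kit, the receptor for stem cell factor, stood at 266 CPM in this set and 130 CPM in Prss34 cells, whereas the transcription factor Lmo4 hardly differed between them, at 578.4 and 578.6 CPM.

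Genes of mature mast cells were nearly missing. Of 18 mast cell genes, 6 had 0 UMIs in the gated cells, among them the tryptase gene Tpsab1 and the mast cell receptor gene Mrgprb2. The chymase gene Mcpt4 had 1 UMI, the tryptase gene Tpsb2 had 3 UMIs in 2 cells, and the chymase gene Cma1 had 25 UMIs in 5 cells. Il1rl1, the receptor for interleukin 33, was present, at 106 CPM in Prss34 cells, 22.8 CPM in Mcpt8 cells without Prss34 and 130 CPM in cells with neither.

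**Figure D2:**
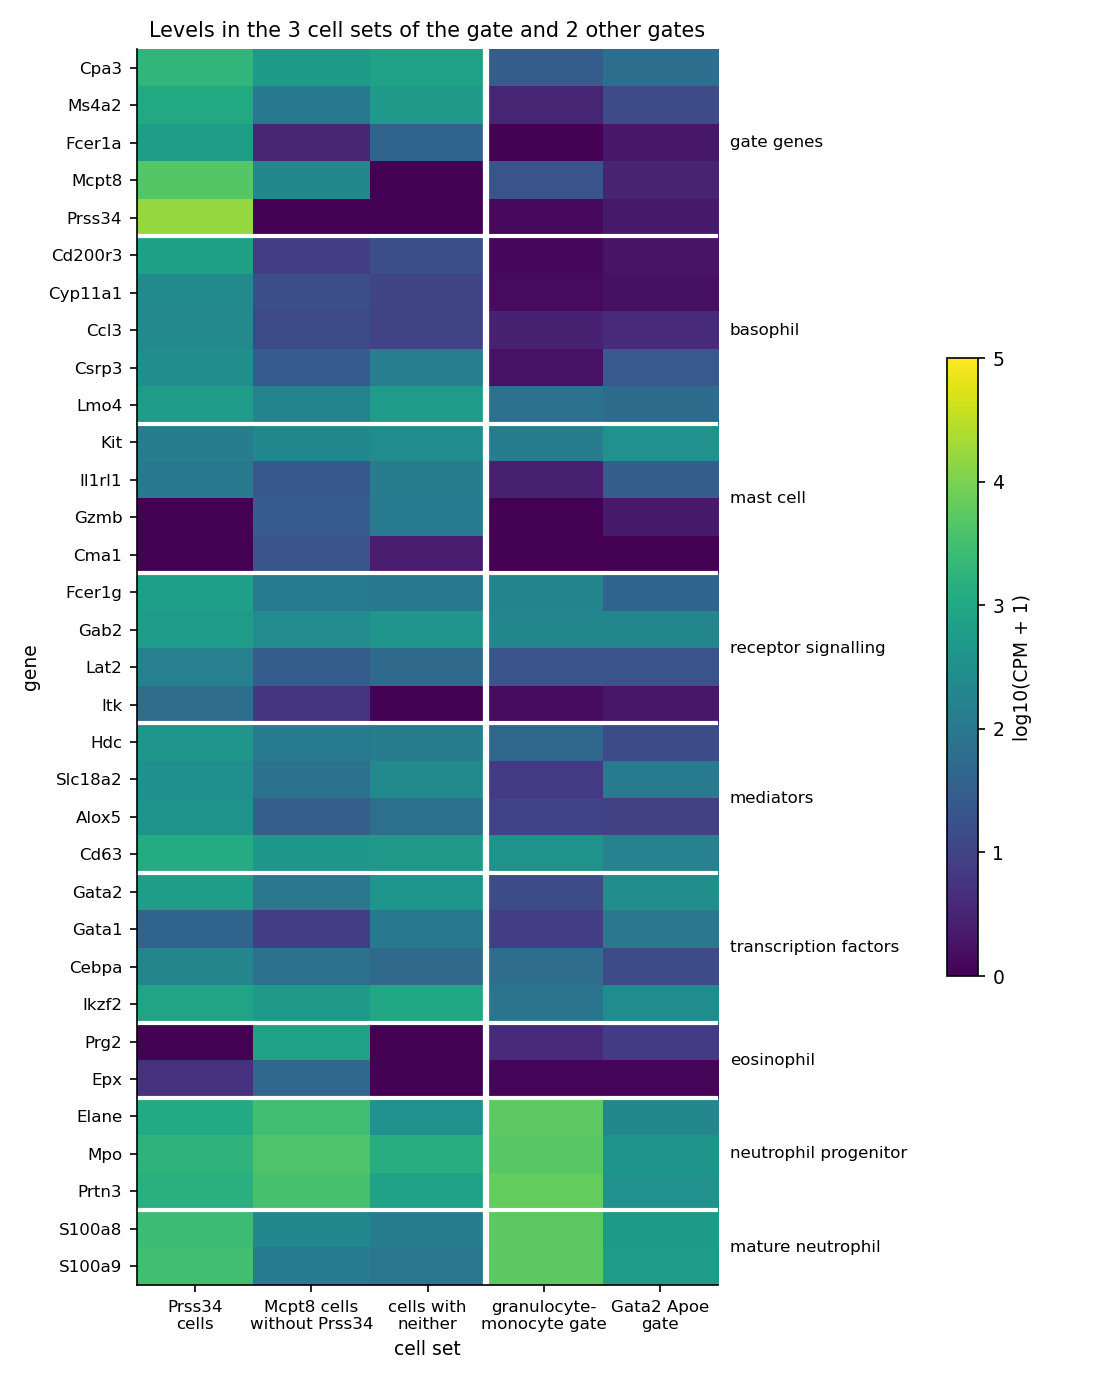
Heat map of log10(CPM + 1) for the gate genes and selected other genes (rows) in the 3 sets of gated cells and in the granulocyte-monocyte and the Gata2 and Apoe gates outside them (columns). Prss34 cells were high in Cd200r3, Cyp11a1 and Ccl3, Mcpt8 cells without Prss34 were high in Elane, Mpo and Prtn3, and cells with neither were high in Gata1.

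The genes that stood highest in the gate over the remaining kept cells, beside the gate genes, were ranked by the smallest ratio over the 6 mice. Cd200r3 stood at 91.3 CPM in gated cells and 0.326 CPM in remaining cells, and Csrp3, a LIM domain protein best known from muscle, at 93.1 and 3.76 CPM. Gata2 stood at 265 CPM in gated cells and 46.4 CPM in the rest. By mouse, Gata2 in gated cells stood at 419 and 284 CPM after tamoxifen plus rapamycin, 221 and 270 CPM after tamoxifen, and 205 and 232.5 CPM after late rapamycin. Both tamoxifen plus rapamycin mice were above the other 4. Zbtb16 (160 and 23.0 CPM in gated and remaining cells) and Ikzf2 (692 and 168 CPM) were further transcription factors in this ranking. Slc18a2 (159.5 and 32.3 CPM), Cd63, a granule membrane tetraspanin (546 and 174.5 CPM), Hdc (149 and 46.4 CPM) and Hgf, hepatocyte growth factor (150.5 and 43.1 CPM), were its granule and secreted genes.

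Of 23671 genes with a UMI in kept cells, 3.47% were higher in the gated than in the remaining cells in all 6 mice and 19.3% were lower in all 6. Many of these genes were sparse: beside the gate genes, 9191 had at least 20 UMIs in the gated cells. A sparse gene can hardly be higher in all 6 mice, and one at 0 in the gate could count only as lower. The shares among genes as abundant as the list members were not taken. Of 15 basophil genes other than the gate genes, 9 were higher in all 6 mice and 0 were lower. Of 20 mediator and granule genes, 8 were higher, including Alox5, Pla2g4a and Srgn, and 2 were lower. Of 23 cytokine receptor genes, Il3ra, Csf2rb and Csf2rb2, which encode chains of the interleukin 3 receptor, and Il1rl1 were higher, and 7 were lower, including Il7r, Flt3, Epor and Csf3r. Of 19 IgE receptor signalling genes, 5 were higher, of which 2 were gate genes. Of 33 transcription factors, 8 were higher, among them Gata2, Cebpa, Runx1, Stat5a and Stat5b, and 10 were lower. Only Gzmb, a granule serine protease, and Il1rl1 of the 18 mast cell genes were higher in all 6 mice.

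Most markers of other lineages were lower in the gate, but not those of neutrophil progenitors. All 9 B cell markers, all 8 mature neutrophil markers, 7 of 9 stem cell markers, 5 of 6 lymphoid-primed markers and 7 of 10 erythroid markers were lower in all 6 mice. These counts hold Ebf1 and Car1, which the gate itself kept at 0. Beside these, the B cell markers Cd79a, Igll1 and Pax5 and the T cell markers Cd3e, Cd3d and Trac were at 0 UMIs. Of 6 neutrophil progenitor markers, 4 were higher in all 6 mice and 1, Fcnb, was lower. The summed level of these 6 genes in gated cells ranged from 6295 to 14590.1 CPM, against 3046 to 9891 CPM in the remaining cells. Their part in the levels of the gate was not tested. The 7 T and NK cell markers summed to 259 to 409 CPM in gated cells and 126 to 244 CPM in remaining cells, nearly all of it from Nkg7, a cytotoxic granule gene, at 256 to 399 CPM in gated cells, while 5 of the 7 were lower in all 6 mice. Of 9 megakaryocyte markers, Itga2b, the integrin CD41, was higher in all 6 mice and 5 were lower, of which Pf4 was kept at 0 by the gate.

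The contrast between gated cells with Mcpt8 or Prss34 (217 cells) and gated cells with neither (143 cells) ran the same way in every mouse for 872 of 9191 genes with at least 20 UMIs. Of these, 407 (4.43% of the genes compared) were higher with Mcpt8 or Prss34 and 465 (5.06%) were lower. Ly6c2, a surface antigen of granulocyte and monocyte progenitors, stood at 139 CPM with and 5.41 CPM without, Hp, haptoglobin, at 147 and 16.2 CPM, and Clec12a, a myeloid lectin receptor, at 197 and 20.3 CPM. Lower genes included Gata1 (12.9 CPM with, 104 CPM without), St8sia6 (12.9 and 151 CPM), Sox5 (7.47 and 101 CPM) and Klf1, the erythroid Krüppel-like factor (3.39 and 29.7 CPM). Basophil genes went both ways. Cd200r3, Ccl3, Cyp11a1 and Itga2 were higher with Mcpt8 or Prss34 in every mouse. Csrp3 (72.6 CPM with, 134 CPM without), Ifitm1 (502 and 931 CPM) and Lmo4 (244 and 578 CPM) were lower in every mouse, and the other basophil genes compared were mixed. Of the 217 cells, 163 belonged to the set with Mcpt8 but no Prss34, which held the higher Elane and Mpo levels given above.

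The share of kept cells in the gate ranged from 0.788% to 1.10% over the mice. It was 0.963% (95% Clopper-Pearson interval 0.736 to 1.24%) and 0.953% (0.725 to 1.23%) in the tamoxifen plus rapamycin mice. It was 1.06% (0.823 to 1.34%) and 1.10% (0.847 to 1.40%) in the tamoxifen mice, and 0.877% (0.673 to 1.12%) and 0.788% (0.582 to 1.04%) in the late rapamycin mice. The treatments did not overlap, but the intervals, which cover counting error only, overlapped between all mice. The mean share was 0.958% ± 0.00690 after tamoxifen plus rapamycin, 1.08% ± 0.0258 after tamoxifen and 0.833% ± 0.0626 after late rapamycin (SD, n = 2 each). The difference between tamoxifen plus rapamycin and tamoxifen was -0.120 percentage points (-0.0969 on day 1 and -0.143 on day 2). It was 0.126 points between tamoxifen plus rapamycin and late rapamycin and 0.246 points between tamoxifen and late rapamycin. Each exact two-sided permutation test gave p = 0.333, the smallest that 2 mice against 2 can give, so no difference in share could pass the threshold.

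Depth differed between the mice, with a median of 3039 and 3823 UMIs per kept cell in the tamoxifen plus rapamycin mice, 3108.5 and 3599 in the tamoxifen mice, and 4606 and 4320.5 in the late rapamycin mice. With every cell thinned to 2000 UMIs and shallower cells left out, the shares were 0.859% and 0.406% after tamoxifen plus rapamycin, 0.770% and 0.669% after tamoxifen, and 0.375% and 0.358% after late rapamycin. The thinning left out 1340 and 1156, 1385 and 1145, and 402 and 1056 cells of these mice. The first 2 treatments then overlapped, while both late rapamycin mice remained lowest. With a gate of at least 3 genes, the differences were smaller and the treatments overlapped, at 0.257% and 0.247% after tamoxifen plus rapamycin, 0.237% and 0.304% after tamoxifen, and 0.269% and 0.164% after late rapamycin. They also overlapped as a share of cells with Kit, where tamoxifen plus rapamycin replicate 1 stood at 1.04% and late rapamycin replicate 1 at 1.14%.

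The make-up of the gate also varied between the mice, over 48 to 67 gated cells each. Cells with Mcpt8 but no Prss34 made up 28.3% and 46.6% of the gate in the tamoxifen plus rapamycin mice, 55.2% and 56.9% in the tamoxifen mice, and 38.7% and 43.8% in the late rapamycin mice. Both tamoxifen mice stood above the other 4. Cells with neither gene made up 55.0% and 41.4%, 31.3% and 29.2%, and 40.3% and 43.8% in the same order of mice, and Prss34 cells made up 16.7% and 12.1%, 13.4% and 13.8%, and 21.0% and 12.5%. Since the 3 sets differ in expression, differences in their proportions stand beside every treatment comparison below, and their part in the results was not tested.

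**Figure D3:**
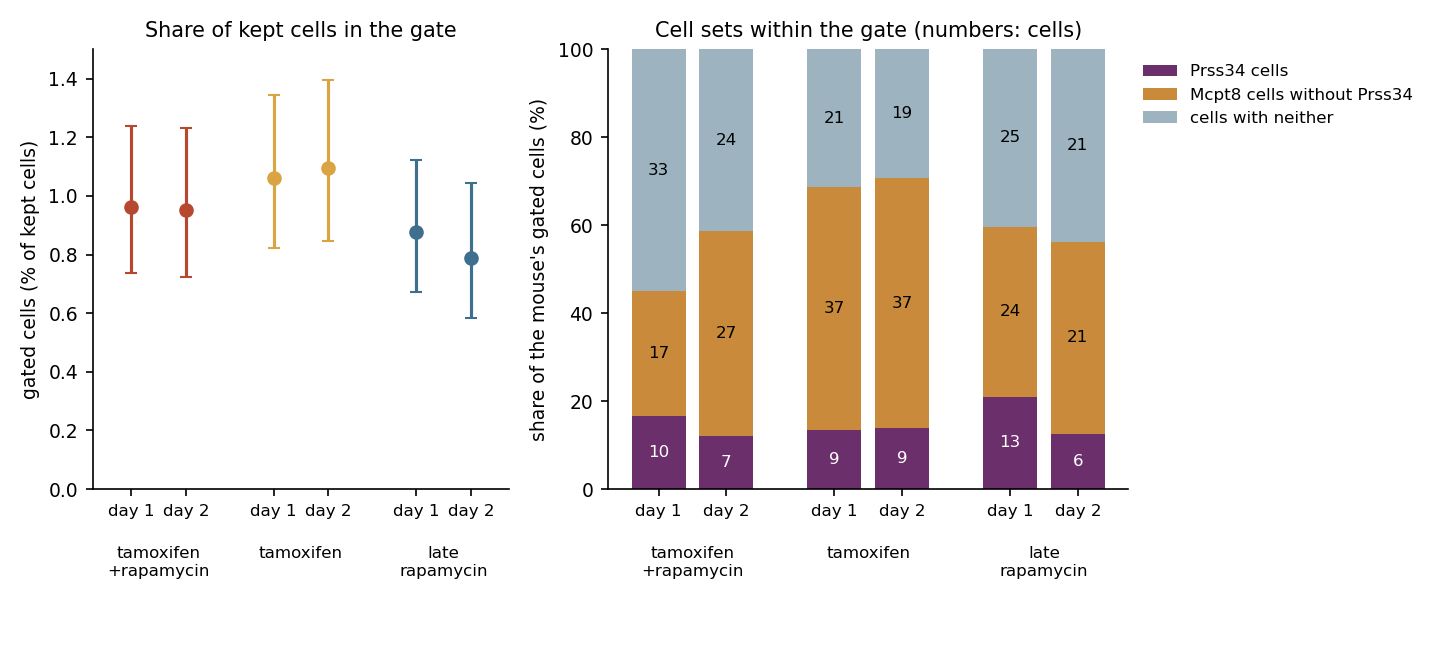
Left, share of kept cells in the gate (percent) for each mouse, with its 95% Clopper-Pearson interval. Right, make-up of the gate by set in each mouse (percent of gated cells, with the number of cells printed). The shares lie between 0.788% and 1.10%. The Mcpt8 cells without Prss34 form the largest part in both tamoxifen mice and in tamoxifen plus rapamycin replicate 2. In late rapamycin replicate 2 they equal the cells with neither, at 21 cells each.

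Treatments were compared on UMIs summed over the gated cells of each mouse, with edgeR's quasi-likelihood test, the processing day as a block and all 6 mice in 1 fit. Of 7164 genes tested, 2 passed an adjusted p of 0.05 between tamoxifen plus rapamycin and tamoxifen (0.0279% of genes), 2 between tamoxifen plus rapamycin and late rapamycin (0.0279%) and 5 between tamoxifen and late rapamycin (0.0698%). The comparisons share mice with each other. The p-values rest on a spread estimated over all 6 mice of the fit, with only 2 mice of each treatment. Mice outside a comparison therefore also enter its p-values. Levels in these comparisons are CPM scaled by the trimmed mean of M-values (TMM), and each difference is a fitted log2 fold change.

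Ctse, which encodes the aspartic protease cathepsin E (GRCm38 chr1:131638306-131675505, plus strand), was higher in gated cells after tamoxifen plus rapamycin than after late rapamycin. It stood at 169 and 171 TMM-scaled CPM in the tamoxifen plus rapamycin mice, 67.4 and 41.4 in the tamoxifen mice, and 38.5 and 47.4 in the late rapamycin mice. Both tamoxifen plus rapamycin mice were above all others, with no overlap. The means were 170.3 ± 1.47 after tamoxifen plus rapamycin and 43.0 ± 6.30 after late rapamycin (SD, n = 2 each). The log2 fold change was 1.98 (SE 0.32, edgeR adjusted p = 0.0230), with 2.00 on day 1 and 1.75 on day 2. Against tamoxifen it was 1.68 (SE 0.31, edgeR adjusted p = 0.0701), which did not pass. The call against late rapamycin was lost without late rapamycin replicate 1 (1.74, edgeR adjusted p = 0.206), without tamoxifen replicate 1 (edgeR adjusted p = 0.0577) and with DESeq2 (adjusted p = 1).

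The Ctse UMIs were spread over many cells. Of 179 UMIs in 111 gated cells, the richest cell held 4.47%. A UMI was found in 26 of 60 and 34 of 58 cells after tamoxifen plus rapamycin, 14 of 67 and 14 of 65 after tamoxifen, and 9 of 62 and 14 of 48 after late rapamycin. Without the richest cell the log2 fold change against late rapamycin was 1.99 (edgeR adjusted p = 0.0154) and against tamoxifen 2.00 (edgeR adjusted p = 0.00437). By set, Ctse stood at 102 CPM in Prss34 cells, 55.4 CPM in Mcpt8 cells without Prss34 and 116 CPM in cells with neither, and the last set was largest in tamoxifen plus rapamycin replicate 1. In the remaining kept cells it stood at 178 and 194 CPM after tamoxifen plus rapamycin, 126 and 154 CPM after tamoxifen, and 63.8 and 122 CPM after late rapamycin, so those cells ran in the same direction.

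Gzmb (GRCm38 chr14:56258838-56262260, minus strand), which encodes granzyme B, was lower in gated cells of both tamoxifen treatments than after late rapamycin. It stood at 23.6 and 18.5 TMM-scaled CPM after tamoxifen plus rapamycin, 24.5 and 13.8 after tamoxifen, and 162 and 78.1 after late rapamycin. Both late rapamycin mice were above the other 4. The log2 fold change was -2.43 for tamoxifen plus rapamycin (SE 0.37, edgeR adjusted p = 0.0201) and -2.61 for tamoxifen (SE 0.36, edgeR adjusted p = 0.00166), each against late rapamycin. The gene rested on few cells: 114 UMIs lay in 18 of the 360, namely 2 and 2 after tamoxifen plus rapamycin, 1 and 2 after tamoxifen, and 9 and 2 after late rapamycin. Of these 18 cells, 13 had neither Mcpt8 nor Prss34 and 0 were Prss34 cells. Without the richest cell, from late rapamycin replicate 2, the values were -1.94 (edgeR adjusted p = 0.338) for tamoxifen plus rapamycin and -2.15 (edgeR adjusted p = 0.118) for tamoxifen, and neither passed. Without late rapamycin replicate 1 they were -2.17 (edgeR adjusted p = 0.510) and -2.35 (0.259), and without tamoxifen replicate 1 -2.42 (0.0577) and -2.58 (0.2996), and none of these passed. The first also failed without tamoxifen plus rapamycin replicate 1 (-2.07, edgeR adjusted p = 0.0687) and with hashtags at 90% (-2.48, edgeR adjusted p = 0.159), and DESeq2 called neither (adjusted p = 1 and 0.477).

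The other 4 called genes are products of mature neutrophils or red cells, and most of their UMIs lay in few cells. Hbb-bs, an adult beta globin gene, had 176 UMIs in 7 gated cells, 85.2% of them in 1 cell of tamoxifen replicate 2. It stood at 0 and 21.1 TMM-scaled CPM after tamoxifen plus rapamycin, 46.0 and 345 after tamoxifen, and 2.75 and 5.58 after late rapamycin. Its log2 fold change was -4.13 (SE 0.44, edgeR adjusted p = 0.000105) between tamoxifen plus rapamycin and tamoxifen, and 5.42 (SE 0.52, edgeR adjusted p = 1.93e-05) between tamoxifen and late rapamycin. Without that 1 cell these became -0.53 and 2.16, and neither passed (edgeR adjusted p = 1.00 and 0.729), and neither passed without tamoxifen replicate 2. With cells holding Car1, Pf4 or Ebf1 admitted, the first value was -1.16 and did not pass. Without the replicate block the first value was -3.99 and did not pass (edgeR adjusted p = 0.0513). The 10 erythroid markers together stood at 80.03 and 90.4 CPM, 192 and 530 CPM, and 110 and 75.7 CPM in the gated cells of the same mice, with Car1 at 0.

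Ngp, a neutrophil granule protein gene, stood at 346 and 31.6 TMM-scaled CPM after tamoxifen plus rapamycin, 36.8 and 6.901 after tamoxifen, and 407 and 25.1 after late rapamycin. Day 1 was higher than day 2 in every treatment. The log2 fold change was 3.04 between tamoxifen plus rapamycin and tamoxifen (SE 0.39, edgeR adjusted p = 0.00083) and -3.18 between tamoxifen and late rapamycin (SE 0.38, edgeR adjusted p = 0.00026). One cell of late rapamycin replicate 1 held 49.6% of the 272 UMIs. Without it the first value was 2.96 (edgeR adjusted p = 0.0300) and the second -0.58 (edgeR adjusted p = 0.870). Without the replicate block the first value was 3.09 and the second -3.42, and neither passed. Neither passed without tamoxifen replicate 1 (1.95 and -2.06), and the second did not pass without late rapamycin replicate 1 (-2.51, edgeR adjusted p = 0.791).

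S100a8 and S100a9, which encode the calprotectin subunits, were lower after tamoxifen than after late rapamycin. S100a8 stood at 642 and 81.7 TMM-scaled CPM after tamoxifen plus rapamycin, 138 and 66.7 after tamoxifen, and 1940.6 and 92.1 after late rapamycin. Late rapamycin replicate 1 was thus far above the other 5 mice. The log2 fold change between tamoxifen and late rapamycin was -2.59 (SE 0.46, edgeR adjusted p = 0.0271), with -3.77 on day 1 and -0.44 on day 2. S100a9 gave -2.53 (SE 0.44, edgeR adjusted p = 0.0250), with -3.52 and -0.42 on the 2 days. Without the replicate block the values were -3.34 for S100a8 and -3.23 for S100a9 (edgeR adjusted p = 0.160 and 0.264), and neither passed. Neither passed without late rapamycin replicate 1 (-1.14 and -1.31), without tamoxifen replicate 1 (-0.93 and -0.76), with DESeq2 or without its richest cell (edgeR adjusted p = 0.112 for S100a8 and 0.238 for S100a9 without that cell). All 8 mature neutrophil markers together stood at 2210.3 and 216 CPM, 410.0 and 179 CPM, and 4460.2 and 278 CPM in the gated cells of the tamoxifen plus rapamycin, tamoxifen and late rapamycin mice, and by set at 8011 CPM in Prss34 cells, 442 CPM in Mcpt8 cells without Prss34 and 303 CPM in cells with neither. Their part in these calls was not tested.

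**Figure D4:**
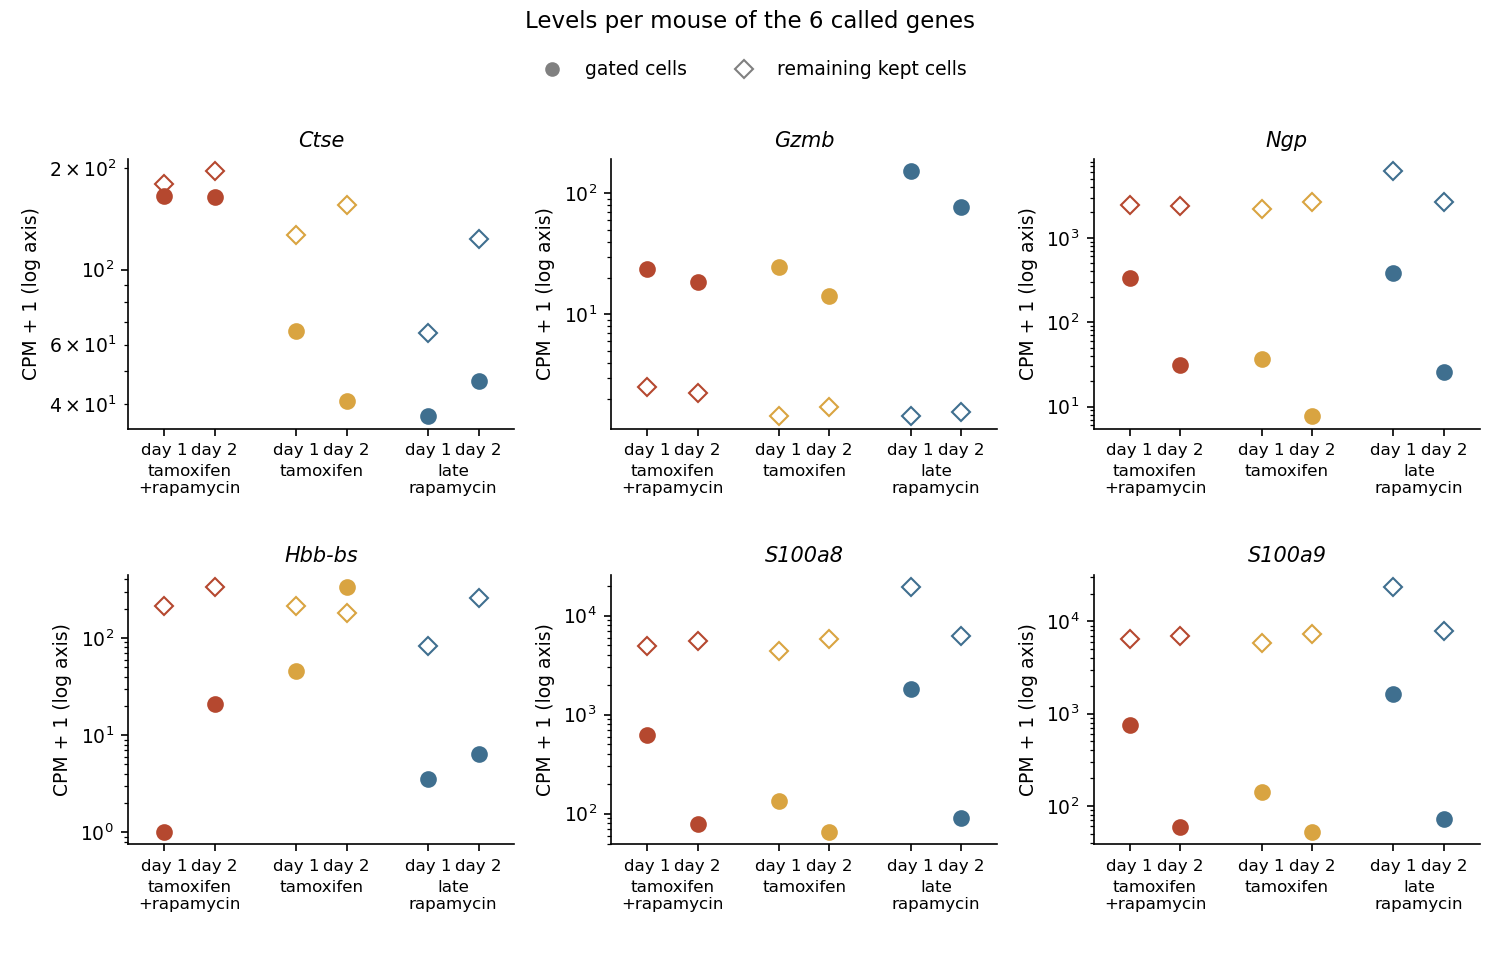
Level of the 6 called genes (CPM + 1, log axis) in each mouse, in gated cells (filled circles) and in remaining kept cells (open diamonds). Ctse is highest in both tamoxifen plus rapamycin mice and Gzmb in both late rapamycin mice, whereas Ngp, S100a8 and S100a9 split by day in the gated cells.

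**Figure D5:**
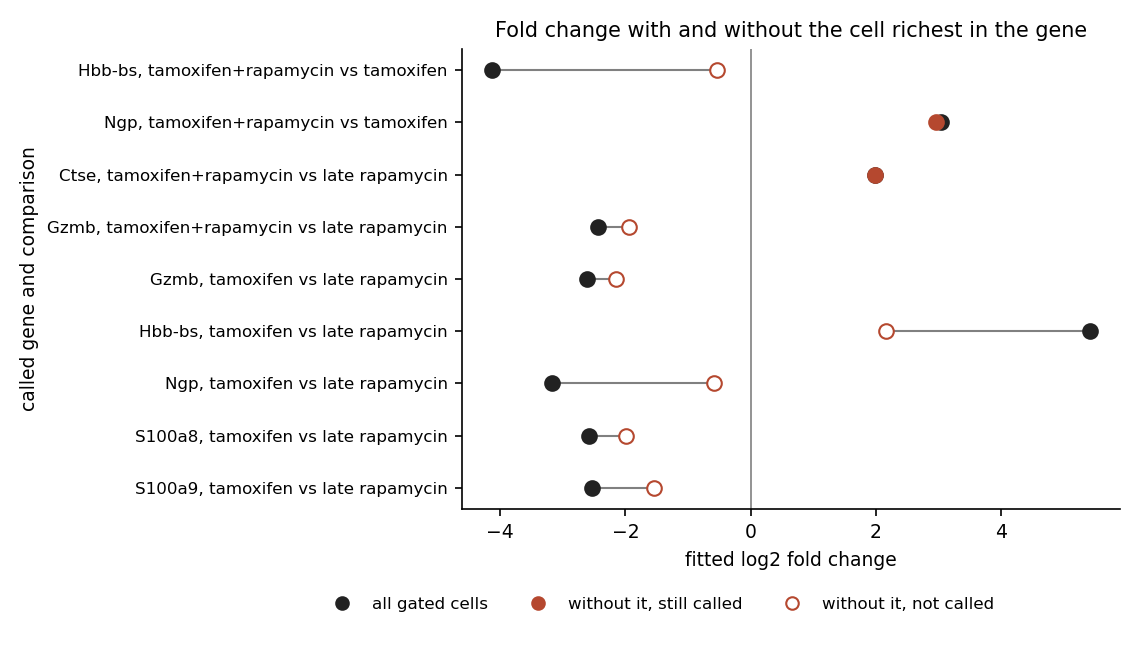
Fitted log2 fold change of each called gene and comparison with all gated cells and without the cell richest in that gene; filled red points passed an adjusted p of 0.05 and open points did not. Ctse stays near 1.98 and passes, and Hbb-bs between tamoxifen plus rapamycin and tamoxifen moves to -0.53.

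The next genes by p did not pass the threshold. Tgfbr3, a co-receptor for TGF-beta, stood at 134 and 134 TMM-scaled CPM after tamoxifen plus rapamycin, 82.8 and 73.6 after tamoxifen, and 44.0 and 47.4 after late rapamycin (log2 fold change between the first and last 1.55, edgeR adjusted p = 0.204). The 3 treatments did not overlap for this gene. Xylt1, an enzyme that starts proteoglycan chains, stood at 279 and 245, 288 and 253, and 110.1 and 123 TMM-scaled CPM (1.16 for tamoxifen plus rapamycin and 1.21 for tamoxifen against late rapamycin, edgeR adjusted p = 0.204 and 0.0613). Both late rapamycin mice were lowest. The chaperone gene Hsp90aa1 stood at 968 and 1012 TMM-scaled CPM after tamoxifen plus rapamycin, 1054 and 849 after tamoxifen, and 1921 and 1449 after late rapamycin, and Hspa8 at 1078 and 965, 1140.3 and 1169, and 1861 and 1594. Both late rapamycin mice were highest for these chaperone genes. Cd47, a surface signal against phagocytosis, stood at 626 and 862, 408 and 446, and 862 and 720.1 TMM-scaled CPM (0.80 between tamoxifen plus rapamycin and tamoxifen, edgeR adjusted p = 1).

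No gene of the basophil, IgE signalling, cytokine receptor, mediator or transcription factor lists passed the threshold in any of the 3 comparisons, and Gzmb was the 1 called mast cell gene. Without adjustment, 218 genes (3.04%), 530 genes (7.4%) and 510 genes (7.12%) had p under 0.05 in the tamoxifen plus rapamycin against tamoxifen, tamoxifen plus rapamycin against late rapamycin, and tamoxifen against late rapamycin comparisons. DESeq2 called 2, 0 and 2 genes, with 8, 68 and 54 at an unadjusted p under 0.05. The median log2 fold change over all genes was 0.00, -0.01 and 0.00 in that order of comparisons, and the lists are described against these medians.

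Of 15 basophil genes, 8 were abundant enough to test, and their median log2 fold change was 0.33, 0.31 and -0.02 in that order, with 2, 1 and 1 of them under an unadjusted p of 0.05. Csrp3 stood at 169 and 129 TMM-scaled CPM after tamoxifen plus rapamycin, 67.4 and 80.5 after tamoxifen, and 71.6 and 86.5 after late rapamycin. Both tamoxifen plus rapamycin mice were above the others, with a log2 fold change of 0.98 against tamoxifen and 0.89 against late rapamycin (edgeR adjusted p = 1 and 0.565). Ifitm1, an interferon-inducible membrane protein, stood at 705.0 and 651, 264 and 281, and 1888 and 301 TMM-scaled CPM, so that the late rapamycin mice lay on either side of the tamoxifen plus rapamycin mice. Of 6 tested mast cell genes, the medians were 0.07, -0.04 and -0.15. Kit stood at 244 and 282, 248 and 235, and 149 and 240.0 TMM-scaled CPM and passed in no comparison.

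Of 16 tested genes of IgE signalling, 2 of them gate genes, the medians were 0.08, 0.09 and 0.12 in the same order, with 0, 2 and 3 under an unadjusted p of 0.05. Clnk, an adaptor of mast cell signalling, stood at 98.4 and 31.6 TMM-scaled CPM after tamoxifen plus rapamycin, 36.8 and 55.2 after tamoxifen, and 105 and 109 after late rapamycin (-1.16 between tamoxifen and late rapamycin, edgeR adjusted p = 0.559). Both late rapamycin mice were highest. The 14 tested cytokine receptor genes had medians of 0.09, 0.32 and 0.22. Crlf2, a chain of the receptor for the alarmin TSLP, stood at 39.4 and 39.5, 70.5 and 69.0, and 33.0 and 44.7 TMM-scaled CPM, highest in both tamoxifen mice (-0.82 between tamoxifen plus rapamycin and tamoxifen, edgeR adjusted p = 1). The 14 tested mediator genes had medians of 0.10, 0.10 and -0.13, with 0, 1 and 1 of them, Ctsg in both cases, under an unadjusted p of 0.05.

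The 28 tested transcription factors had medians of 0.09, 0.32 and 0.18, with 19, 24 and 21 above 0. Gata2 stood at 433 and 298 TMM-scaled CPM after tamoxifen plus rapamycin, 230.3 and 281 after tamoxifen, and 220.3 and 240.0 after late rapamycin (0.65 between the first and last, SE 0.24, edgeR adjusted p = 0.625). Both tamoxifen plus rapamycin mice were highest, by a margin that did not pass. The 5 tested neutrophil progenitor genes had medians of 0.25, -0.59 and -0.80, and 0, 3 and 4 of them were under an unadjusted p of 0.05, all lower than after late rapamycin. Prtn3, proteinase 3, stood at 1728 and 2343 TMM-scaled CPM after tamoxifen plus rapamycin, 1869.8 and 1548 after tamoxifen, and 5205 and 2171 after late rapamycin, so the late rapamycin replicate 1 again stood apart. Of 9 tested cold and heat response genes, the medians were 0.04, -0.62 and -0.58. Under an unadjusted p of 0.05 were 1, 6 and 8 of them, beside 3.04%, 7.4% and 7.12% of all genes tested. All were lower in the first 2 comparisons, and in the third 6 were lower and 2 higher. None passed the adjusted threshold. For Hspa8, Hsp90aa1, Cirbp and Rbm3, the difference from the remaining kept cells, tested as described next, passed in no comparison.

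Whether a treatment difference in the gated cells differed from that in the remaining kept cells was tested as an interaction of cell set and treatment in edgeR, with the mouse as a block. Of 14225 genes, 11 (0.0773%), 17 (0.12%) and 25 (0.176%) passed an adjusted p of 0.05 in the tamoxifen plus rapamycin against tamoxifen, tamoxifen plus rapamycin against late rapamycin, and tamoxifen against late rapamycin comparisons, of which 0, 2 and 3 were gate genes. Ctse passed in the first: its difference between tamoxifen plus rapamycin and tamoxifen was 1.28 larger on the log2 scale in gated cells (edgeR adjusted p = 0.0145). This call was lost without either tamoxifen plus rapamycin mouse and without tamoxifen replicate 2, with values of 1.23, 1.31 and 0.73 (edgeR adjusted p from 0.135 to 1). Against late rapamycin its difference from the remaining cells was 1.00 (edgeR adjusted p = 0.390), which did not pass.

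Ifitm1 passed the interaction test between tamoxifen plus rapamycin and late rapamycin (0.91, edgeR adjusted p = 0.000524). In gated cells it stood at 682 and 620.3 CPM after tamoxifen plus rapamycin, 254 and 269.6 CPM after tamoxifen, and 1754 and 292 CPM after late rapamycin. In remaining cells it stood at 285 and 299.9 CPM, 236 and 254 CPM, and 1383 and 251 CPM. Gated cells were therefore above the remaining cells most clearly in the tamoxifen plus rapamycin mice, and late rapamycin replicate 1 was high in both sets of cells. Tyrobp, a signalling adaptor of myeloid receptors, gave 1.28 in the same comparison (edgeR adjusted p = 1.58e-05), with 278 and 284 CPM, 248 and 225 CPM, and 182 and 151 CPM in gated cells and 234 and 266 CPM, 223 and 245 CPM, and 426 and 277 CPM in remaining cells. The gated and the remaining cells of the late rapamycin mice thus lay on opposite sides of the other mice, and without late rapamycin replicate 1 the value was 1.05 and did not pass (edgeR adjusted p = 0.105).

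Fcer1g gave 1.48 between tamoxifen and late rapamycin (edgeR adjusted p = 2.56e-07). It stood at 198 and 133 CPM, 212 and 219 CPM, and 146 and 124 CPM in gated cells, and at 149 and 168 CPM, 159 and 156 CPM, and 360.4 and 180 CPM in remaining cells. Late rapamycin replicate 1 had the highest level in its remaining cells, which held the high neutrophil marker level given above, and without that mouse the value was 1.00 and did not pass (edgeR adjusted p = 0.428). Of the 18 leading results of the interaction test, in which some genes stand in more than 1 comparison, Ifitm1 between tamoxifen plus rapamycin and late rapamycin alone kept its call in all 8 alternatives (edgeR adjusted p from 9.31e-05 to 0.0495).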

How the data were processed

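RNA and hashtag antibodies of bone marrow cells from 6 mice were read on the 10x Genomics 3′ v3 platform in 2 pools of 3 mice, 1 per day. The authors deposited UMI counts per gene and cell, not normalized, with 32285 genes. The build mm10 and Cell Ranger 7.0.0 come from the submitters' processing notes, whereas the matrices carry version 8.0.1, per the file headers. Whether introns were counted is not given in the sources used here. No column of another series was used.

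Cells were kept with at least 500 genes, at least 1000 gene UMIs, at most 10% mitochondrial UMIs and at least 80% of hashtag UMIs from 1 hashtag. Of the cells passing the first 3 filters, 22313 on day 1 and 20107 on day 2, 2694 and 2009 could not be given to a mouse. No doublet caller was run. The hashtag filter leaves out cells with mixed hashtags, but not doublets of 1 mouse. The gate and the gene lists were chosen with earlier results of these data known.

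Counts were summed per mouse and tested with edgeR 4.0.16 in R 4.3.3 (TMM, filterByExpr, glmQLFit, glmQLFTest, two-sided, Benjamini-Hochberg over all genes tested, threshold 0.05), with the day as a block. DESeq2 1.42.0 was the alternative test. The replicate number marks the processing day. Same-day deviations of pairs of treatments correlated at -0.04, -0.02 and 0.15 over genes. The scripts were tested on simulated data. Text names called genes with the same sign on both days, up to 10 further genes of smallest p, up to 4 genes per list, 6 genes per interaction test, and genes of the gate with at least 200 UMIs ranked by the lowest ratio over mice with 5 CPM added. Genes of the lists that describe the sets, the combinations and the mast cell genes were picked from the lists after their values were seen. The other settings tried were a different normalization, no filter on low counts, no block, stricter hashtag and mitochondrial limits, a gate of 3 genes, no exclusion genes, thinning to 2000 UMIs, Kit cells as the denominator and leaving out each mouse. The refit without the cell richest in a gene was added after the data were seen. Figures and sums used Python 3.11.15, numpy 2.4.6, scipy 1.17.1, pandas 2.3.3 and matplotlib 3.10.9. Reporter and Cre transcripts were not used here.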

Additional observations from a re-analysis of the deposited data

Results flagged for a closer look

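In the interaction test of edgeR, the treatment difference in gated cells differed from that in the remaining kept cells for the following genes, the 6 of smallest p in each comparison that were not gate genes. Each value is the log2 difference in gated cells minus that in remaining cells. Between tamoxifen plus rapamycin and tamoxifen it was -4.54 for Hbb-bs, 2.99 for Ngp, 1.70 for S100a9, -3.41 for Hba-a1, 1.53 for S100a8 and 2.28 for Camp (edgeR adjusted p from 1.96e-29 to 1.74e-06). These are globin and neutrophil granule genes, and over the 11 genes that passed, 4 had over 50% of their gated UMIs in 1 cell. Without tamoxifen replicate 2 the globin values were -2.34 for Hbb-bs (edgeR adjusted p = 0.317) and -1.34 for Hba-a1 (edgeR adjusted p = 1), and without tamoxifen plus rapamycin replicate 1 that for Ngp was 0.71 (edgeR adjusted p = 1).

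Between tamoxifen plus rapamycin and late rapamycin it was 1.82 for Lyz2, 1.28 for Tyrobp, 2.06 for Prg2, 1.10 for Alox5ap, -3.89 for Gzmb and 0.91 for Ifitm1 (edgeR adjusted p from 2.42e-09 to 0.000524). Alox5ap, the activating protein of 5-lipoxygenase, stood in gated cells at 343 and 294 CPM after tamoxifen plus rapamycin and 315 and 238 CPM after late rapamycin, and in remaining cells at 195 and 193 CPM and at 555 and 201 CPM. The gated cells of these treatments overlapped for this gene. Without late rapamycin replicate 1 the value for Alox5ap was 0.47 (edgeR adjusted p = 1) and that for Gzmb -3.20 (edgeR adjusted p = 0.375), and neither passed. Without tamoxifen plus rapamycin replicate 1 that for Gzmb was -3.92 (edgeR adjusted p = 0.0541), and without replicate 2 of that treatment that for Lyz2 was 1.21 (edgeR adjusted p = 0.0796).

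Between tamoxifen and late rapamycin it was 5.40 for Hbb-bs, 3.20 for Prg2, -2.27 for Ngp, 4.35 for Hba-a1, 1.48 for Fcer1g and -1.36 for S100a8 (edgeR adjusted p from 8.21e-26 to 1.46e-05). Prg2, the eosinophil major basic protein gene, stood in gated cells at 72.4 and 555 CPM after tamoxifen plus rapamycin, 1820.0 and 0 CPM after tamoxifen, and 133 and 21.6 CPM after late rapamycin. No treatment stood apart from the others for Prg2. Without late rapamycin replicate 1 the value for Ngp was -0.24 (edgeR adjusted p = 1), and without tamoxifen replicate 2 the globin values were 3.19 for Hbb-bs (edgeR adjusted p = 0.0578) and 2.26 for Hba-a1 (edgeR adjusted p = 1).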

How the results depend on the processing

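Numbers of called genes are given for tamoxifen plus rapamycin against tamoxifen, tamoxifen plus rapamycin against late rapamycin, and tamoxifen against late rapamycin, in that order, beside 2, 2 and 5. Without a filter on low counts, 12, 27 and 52 genes passed. Without the replicate block, 0, 2 and 3 passed. DESeq2 called 2, 0 and 2 (68 at an unadjusted p under 0.05 in the second, where edgeR called 2). Without the exclusion genes, 5 passed in the second comparison and 24 in the third, and with hashtags at 90%, 1 in the second. Leaving out each mouse gave 1 to 24, 0 to 167 and 2 to 109 genes; the lowest counts came without tamoxifen replicate 1, and the highest without tamoxifen plus rapamycin replicate 1, tamoxifen plus rapamycin replicate 2 and late rapamycin replicate 2. The interaction test, with 11, 17 and 25 genes, gave 5 to 20, 7 to 38 and 5 to 53, lowest without tamoxifen replicate 2, late rapamycin replicate 1 and late rapamycin replicate 1, and highest without tamoxifen plus rapamycin replicate 2, late rapamycin replicate 2 and late rapamycin replicate 2. The cause was not tested.

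Interaction values changed sign when 1 mouse was left out for S100a9 (-0.73 to 3.02), S100a8 (-0.39 to 2.73) and Camp (-0.051 to 3.36) between tamoxifen plus rapamycin and tamoxifen, each reversed without tamoxifen plus rapamycin replicate 1. They also did for Prg2 (-1.23 to 6.58 between tamoxifen plus rapamycin and late rapamycin, reversed without tamoxifen plus rapamycin replicate 2, and -10.01 to 5.40 between tamoxifen and late rapamycin, reversed without tamoxifen replicate 1) and for S100a8 between tamoxifen and late rapamycin (-2.25 to 0.39, reversed without late rapamycin replicate 1). With the replicate block, the difference of the logit share was -0.12, 0.14 and 0.26, of the same sign as the differences in share. No alternative turned the sign of a difference in share, but a gate of 3 genes brought the differences to -0.019, 0.035 and 0.054 percentage points, beside -0.120, 0.126 and 0.246, with overlapping treatments. Gene tests with a gate of 3 genes were not run, since the mice then held 10 to 19 cells, all under the minimum of 20. Of 7164 genes tested, those with few UMIs per mouse limit what 48 to 67 cells can show.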

Other observations

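Eosinophil granule genes lay in a few gated cells. Prg2, Epx and Prg3 together had 0 UMIs in 350 gated cells and at least 20 in 5. The richest of these, from tamoxifen replicate 1, had 381 UMIs of Prg2, 20 of Epx and 15 of Prg3. Another of that mouse had 236, 26 and 13 UMIs, with 7 UMIs of Cpa3 and 1 of Mcpt8. A cell of tamoxifen plus rapamycin replicate 2 had 221, 11 and 15 UMIs, 1 of tamoxifen plus rapamycin replicate 1 had 19, 0 and 9, and 1 of late rapamycin replicate 1 had 52, 1 and 11. Siglecf was the 1 of 10 eosinophil genes that was higher in gated than in remaining cells in all 6 mice, and Ccr3, the eotaxin receptor gene, had 0 UMIs in the gate.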
